A study of Mus musculus with 6 samples.

Results

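The 9 genes described here encode calcineurin, 2 of its inhibitors and the transcription factors it activates. They are the catalytic subunit genes Ppp3ca and Ppp3cb, the regulatory subunit gene Ppp3r1, the inhibitor genes Rcan1 and Rcan2, and the NFAT genes Nfatc1, Nfatc2, Nfatc3 and Nfatc4. They were found by symbol, each in 1 row of its own, among the 25927 rows of the authors' deposited table. All 9 were among the 13347 rows that the authors tested, and all had a mean of at least 1 FPKM (fragment counts scaled by transcript length and by the size of the library). The samples were gastrocnemius, a calf muscle made mostly of fast fibres, taken at 8 weeks of age from C57BL/6J mice, with 3 libraries from wild-type animals (WT) and 3 from animals whose MLL4SET was knocked out in muscle (MLL4SET-MKO). The knock-out removes the catalytic SET part of the histone H3 lysine 4 methyltransferase MLL4. No source used here names the promoter that drives the deletion or says whether WT mice carried the unrecombined allele. The table gives 1 FPKM for each group, so no value of a single mouse and no spread between mice can be shown, and read depth is unknown.

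Calcineurin is a phosphatase switched on by calcium and calmodulin. It is a pair of a catalytic A subunit and a calcium-binding B subunit. Its best known substrates are the NFAT factors, which wait in the cytoplasm in a phosphorylated form, enter the nucleus once dephosphorylated, and are sent back out by kinases. In adult muscle the slow, sustained calcium signals of slow motor nerves keep this route active, and it is known for maintaining the slow fibre gene programme. RCAN proteins bind calcineurin and inhibit it, and a short form of Rcan1 is itself an NFAT target, which makes it a common readout of the route.

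The sequences below show the stretches just upstream of transcription starts of Rcan1, whose downstream start is the one known to respond to NFAT, and of Nfatc2 and Nfatc3, the genes that passed the test. They come from RefSeq on GRCm38.p6. Each is the 250 bases before a start, on the strand of the gene, 5′ to 3′, and capitals mark GGAAA, the core of NFAT binding motifs, on either strand (TTTCC on the other). The window before the upstream start of Rcan1 is chr16:92466170-92466419 (minus strand), that before the downstream start chr16:92400079-92400328 (minus strand), that of Nfatc2 chr2:168601658-168601907 (minus strand) and that of Nfatc3 chr8:106059340-106059589 (plus strand).
Rcan1 upstream start: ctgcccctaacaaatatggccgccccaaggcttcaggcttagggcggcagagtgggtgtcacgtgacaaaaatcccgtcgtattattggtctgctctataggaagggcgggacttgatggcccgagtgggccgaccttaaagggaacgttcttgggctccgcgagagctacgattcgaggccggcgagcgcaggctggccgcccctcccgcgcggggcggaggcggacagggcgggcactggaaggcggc
Rcan1 downstream start: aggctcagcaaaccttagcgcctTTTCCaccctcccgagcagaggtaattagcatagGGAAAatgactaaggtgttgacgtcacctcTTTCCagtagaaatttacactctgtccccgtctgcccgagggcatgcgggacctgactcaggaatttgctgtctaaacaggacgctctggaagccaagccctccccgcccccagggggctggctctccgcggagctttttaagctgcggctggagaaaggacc
Nfatc2: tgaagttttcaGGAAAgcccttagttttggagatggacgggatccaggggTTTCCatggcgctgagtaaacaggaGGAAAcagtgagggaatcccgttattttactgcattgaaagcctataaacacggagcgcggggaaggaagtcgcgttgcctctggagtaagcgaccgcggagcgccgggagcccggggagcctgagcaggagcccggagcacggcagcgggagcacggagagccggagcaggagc
Nfatc3: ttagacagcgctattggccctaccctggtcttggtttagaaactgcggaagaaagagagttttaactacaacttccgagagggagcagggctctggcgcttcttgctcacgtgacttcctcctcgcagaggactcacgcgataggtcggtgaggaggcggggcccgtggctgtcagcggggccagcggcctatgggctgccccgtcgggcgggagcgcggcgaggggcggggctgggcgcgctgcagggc
The core occurred 0 times before the upstream start of Rcan1 and 3 times before the downstream start, 66091 bases away. It occurred 3 times in the Nfatc2 window shown and 0 times in the Nfatc3 window shown. Of all 32851 windows of this length in the table, 55.6% held the core at least once and 6.39% held it at least 3 times. Windows were present for 7 of the 9 genes. Among the others, those of Ppp3cb and Nfatc4 each held 3 matches and that of Ppp3r1 held 0. Those of Rcan2 held from 0 to 2, and a further start of Nfatc2 and one of Nfatc3 had 1 match each. A match is a run of letters and was not tested as a binding site, and the FPKM of a gene does not show from which start its transcripts came.

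Of the 4 NFAT genes, Nfatc3 and Nfatc2 fell in MLL4SET-MKO muscle, Nfatc1 had a lower value that did not pass the test, and Nfatc4 was nearly level. Nfatc3 fell from 13.9 to 10.3 FPKM and Nfatc2 from 3.38 to 2.40 FPKM. The calcineurin subunits gave no call: between WT and MLL4SET-MKO, Ppp3cb went from 134 to 116 FPKM, Ppp3ca from 67.8 to 69.6 FPKM and Ppp3r1 from 103 to 96.2 FPKM. Whether the subunit genes and the NFAT genes differed in their ratios was not tested. The inhibitors Rcan1 and Rcan2 had lower values in MLL4SET-MKO, and neither passed. Across the 9 genes, 8 had the lower value in MLL4SET-MKO, or 7 once the groups were scaled to equal totals or centred on the median of expressed rows, which turned Nfatc4. Of the 11271 tested rows with a mean of at least 1 FPKM, 56.0% had the lower value in MLL4SET-MKO.

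A q under 0.05 in the authors' deposited table counted as a call. On that rule 2 of the 9 genes were called lower (22.2%), where 7.41% of all tested rows were. None was called higher in the authors' deposited table, where 4.44% of all tested rows were, and none of the higher genes had an unadjusted p under 0.05. An unadjusted p under 0.05 in the authors' deposited table was held by 4 genes, all lower: Nfatc3, Nfatc2, Nfatc1 and Rcan1. The share of all tested rows under that threshold was not worked out. Such counts, here and for the markers below, are therefore description only and cannot be set against the shares of calls. The median log2 ratio of the 9 genes was -0.24, beside -0.04 over the rows with a mean of at least 1 FPKM. Both calls depended on the form of the p-value. At the median of 11625 rows, the deposited p-values matched a normal deviate 1.73 times the deposited test statistic. No deposited p was below 5e-05, and rows at that floor were left out of the median. The match is a fit, and which of the readings the authors intended is not known. With the statistic itself read as a standard normal deviate, none of the 9 genes was called and none had an unadjusted p under 0.05, where 1.88% of rows were called lower. At q under 0.01 in the authors' deposited table only Nfatc3 was called, where 5.05% of tested rows were called lower. Adjusted over the rows with a mean of at least 1 FPKM, or among rows with 1 symbol, 2 genes were called lower, where 7.94% and 7.39% of those rows were. The 95% intervals below were worked back from the deposited p-values. A wider one, from the statistic alone, is printed only for Nfatc3 and Nfatc2, the called genes of the 9.

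Targeted Kmt2d, the gene of MLL4 (chromosome 15), had 8.77 FPKM in WT and 5.65 FPKM in MLL4SET-MKO, and none of the 9 genes lies on its chromosome. An FPKM of the entire transcript says nothing of the deleted part alone. Of the 7 muscle fibre markers measured, 1 was called lower (14.3%) and none higher in the authors' deposited table, with 2 lower and 0 higher at an unadjusted p under 0.05. Of tested rows with a mean of at least 1 FPKM, 7.93% were called lower. The called gene was Mylpf, the fast light chain, which fell from 10773 to 6959 FPKM (log2 ratio -0.63), a call that was lost on the standard normal reading (adjusted p of 0.34). Of the others, Des had 1049 and 830.0 FPKM at an unadjusted p of 0.0255 in the authors' deposited table, at a locus shared with Speg, Pygm had 3191 and 3160 FPKM, and Tnni2 8348 and 9616 FPKM. The estimate of Ckm had failed. In whole muscle, fewer cells of a type and less RNA per cell cannot be told apart. All 10 macrophage markers were higher in MLL4SET-MKO, 6 of them called, where 4.44% of all tested rows were called higher, with a summed level of 104 FPKM in WT and 167 FPKM in MLL4SET-MKO. On the standard normal reading 1 of those 6 calls was left. The 8 lymphocyte markers, whose cells are rich in NFAT, were all at or below 0.157 FPKM. The 8 endothelial markers summed to 154 and 142 FPKM in WT and MLL4SET-MKO with none called and none at an unadjusted p under 0.05. None was called among the 6 fibroblast, 6 Schwann cell and 4 mast cell markers measured, with unadjusted p-values under 0.05 in the authors' deposited table for 1, 0 and 1 of them. The satellite cell markers summed to 11.6 and 9.85 FPKM, with Pax7, which defines these cells, at 0.597 and 0.415 FPKM. Cdh15, at 7.63 FPKM in each group, made up most of that sum. Of the other satellite cell markers, Myf5 (1.46 and 0.789 FPKM, q = 0.0243) and Calcr (0.463 and 0.0401 FPKM, q = 0.00564) were called lower in the authors' deposited table, and both calls were lost on the standard normal reading, with adjusted p-values of 0.69 and 0.18. Pax7 and Vcam1 (1.43 and 0.976 FPKM) were not called, at unadjusted p-values of 0.03515 and 0.0083 in the authors' deposited table. On the standard normal reading these were 0.23 and 0.13. The part of these cell types in the NFAT values was not tested.

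In order of level, per transcript length, the WT values fell from Ppp3cb at 134 FPKM through Ppp3r1 at 103, Ppp3ca at 67.8, Rcan1 at 66.5, Rcan2 at 28.1, Nfatc1 at 16.2, Nfatc3 at 13.9 and Nfatc2 at 3.38 to Nfatc4 at 1.48 FPKM. Transcripts of the calcineurin genes were thus several times as abundant as those of the NFAT genes, and protein levels were not measured. The order was the same in MLL4SET-MKO. With an error worked back from the deposited p-values and taken as equal in both groups, 2 neighbouring pairs in the WT order did not differ beyond it. These were Ppp3ca and Rcan1, with a ratio of levels of 1.02, and Nfatc1 and Nfatc3, with a ratio of levels of 1.17. In MLL4SET-MKO no neighbouring pair lay within it, and the ratio of Ppp3ca to Rcan1 was 1.31. The MLL4SET-MKO log2 gaps were 0.27 (Ppp3cb, Ppp3r1), 0.39 (Ppp3ca, Rcan1) and 0.32 (Nfatc1, Nfatc3), beside half-widths of 0.25. The wider error, from the statistic alone, is 1.73 times as large. It would hold these gaps, and the WT gap of Ppp3cb and Ppp3r1 (0.38). Both errors come from ratios between groups and do not measure a gap between genes. No difference in order between the groups was thus shown. Between the groups, the change in the gap from Nfatc1 to Nfatc3 had an interval that held 0 (-0.26 to 0.45). That in the gap from Ppp3ca to Rcan1 was not tested.

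**Figure D1:**
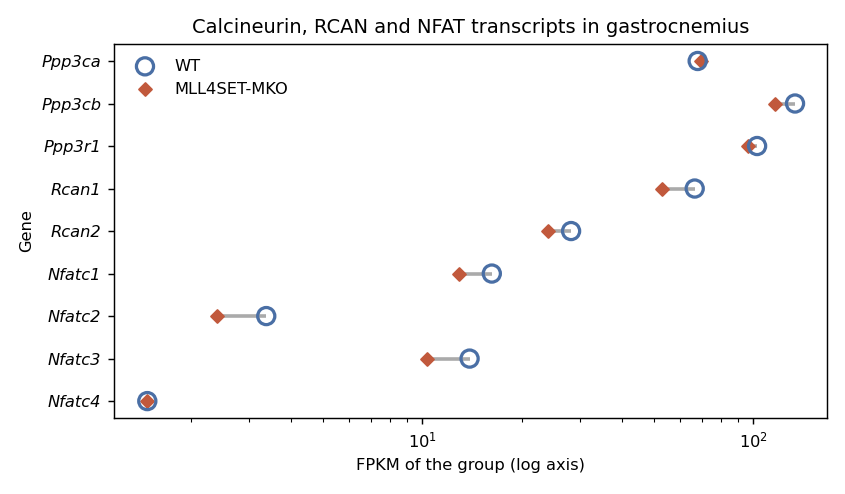
FPKM of each gene in the WT group (open circles) and the MLL4SET-MKO group (filled diamonds), on a log axis, with 1 value per group and no spread between mice. The values span 1.47 FPKM (Nfatc4) to 134 FPKM (Ppp3cb), and the diamond lies left of the circle for 8 of the 9 genes, of which Nfatc4 turned when the groups were scaled to equal totals or centred.

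Among the catalytic genes, Ppp3ca encodes calcineurin A alpha (chromosome 3, 136670066 to 136937727, plus strand, protein-coding). Its level was 67.8 FPKM in WT animals and 69.6 FPKM in MLL4SET-MKO, a log2 ratio of 0.04 (95% interval -0.21 to 0.28) and q in the authors' deposited table was 0.926. It was the one gene of the 9 with the higher value in MLL4SET-MKO. Ppp3cb, which encodes calcineurin A beta (chromosome 14, 20499364 to 20546573 in GENCODE M21, minus strand), stood at 134 and 116 FPKM. Its log2 ratio was -0.20 (interval -0.45 to 0.05), and the authors' deposited table gives q = 0.368. The authors' locus of Ppp3cb runs on to 20618354 and is shared with Usp54 and 1810062O18Rik, whose levels were 1.88 and 0.133 FPKM in WT, far below that of Ppp3cb. The log2 ratio of Ppp3cb minus that of Ppp3ca was -0.24, with an interval of -0.59 to 0.11 when the errors of both genes are taken as independent, which includes 0.

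Ppp3r1 encodes calcineurin B, the calcium-binding regulatory subunit that the phosphatase needs (chromosome 11, 17159298 to 17200380, plus strand). It stood at 103 FPKM in the WT group and 96.2 FPKM in MLL4SET-MKO, a log2 ratio of -0.09 (interval -0.34 to 0.15), and q was 0.754 in the authors' deposited table. A change of Ppp3r1 by more than 0.34 on the log2 scale, in either direction, would have been needed for a call at its precision. The third catalytic gene, Ppp3cc, calcineurin A gamma, is not one of the 9. It stood in WT and MLL4SET-MKO at 14.4 and 11.7 FPKM, with q = 0.147 in the authors' deposited table. Together the 3 catalytic genes summed to 216 FPKM in WT and 197 FPKM in MLL4SET-MKO. Ppp3cb made up 61.9% of that sum in WT and 58.8% in MLL4SET-MKO, Ppp3ca 31.4% and 35.3%, and Ppp3cc 6.69% and 5.91%. The level of Ppp3r1 relative to that sum was 0.475 in WT and 0.488 in MLL4SET-MKO.

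**Figure D2:**
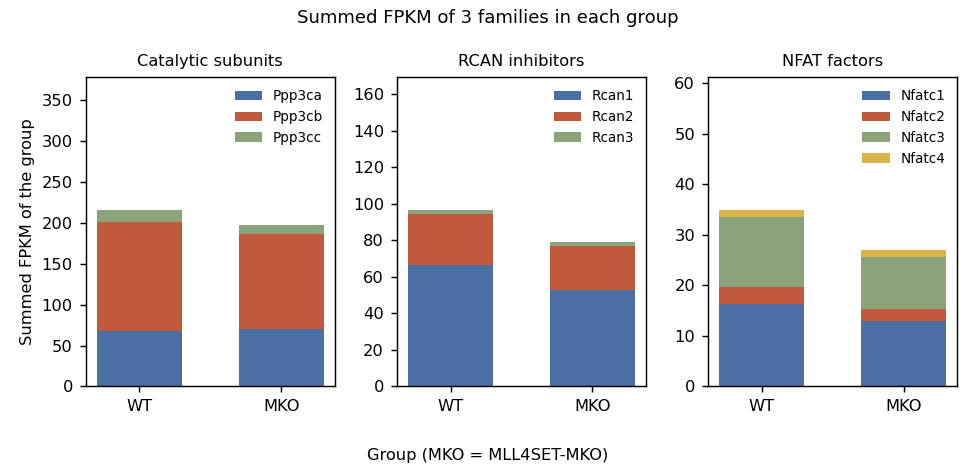
Summed FPKM of the catalytic, RCAN and NFAT genes in each group, as stacked bars from 0 with 1 colour per gene and 1 value per group. The sums were 216 and 197 FPKM for the catalytic genes, 96.7 and 78.9 for the RCAN genes and 35.0 and 27.1 for the NFAT genes, in WT and MLL4SET-MKO.

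Rcan1, the feedback inhibitor (chromosome 16, 92391951 to 92466169, minus strand), had 66.5 FPKM in WT and 53.0 FPKM in MLL4SET-MKO. Its level was 20.2% lower, a log2 ratio of -0.33 (interval -0.58 to -0.08). The unadjusted p in the authors' deposited table was 0.0116 and q was 0.0830, so it missed the threshold after adjustment. At its precision a log2 ratio of at least 0.35 in size would have been called. The locus holds both transcription starts shown above, so a change in the NFAT-responsive short form and one in the long form could not be told apart. Rcan2, a related inhibitor (chromosome 17, 43801851 to 44039516, plus strand), stood at 28.1 and 23.9 FPKM. Its log2 ratio was -0.24 (interval -0.49 to 0.01), and the authors' deposited table gives q = 0.253. The log2 ratio of Rcan1 minus that of Rcan2 was -0.09 (interval -0.44 to 0.26). Rcan3, the last of the family, was low, at 2.10 and 2.03 FPKM. The summed RCAN level relative to the summed catalytic level was 0.448 in WT and 0.400 in MLL4SET-MKO.

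Nfatc3 encodes an NFAT factor with a part in early muscle formation in the mouse (chromosome 8, 106059603 to 106130537, plus strand). It fell from 13.9 to 10.3 FPKM, which is 25.7% lower, a log2 ratio of -0.43 (interval -0.68 to -0.18). The unadjusted p was 0.0006 and q was 0.00792 in the authors' deposited table. With the test statistic as a standard normal deviate the interval was -0.86 to 0.00 and the adjusted p was 0.62. Of the rows with a mean of at least 1 FPKM, 8.55% had a lower log2 ratio than Nfatc3. Its end overlaps that of Esrp2 on the opposite strand in GENCODE M21. The authors' table lists Esrp2 at 0 in the WT group and at 0.0126 FPKM in the MLL4SET-MKO group.

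Nfatc2, known in the mouse for its part in the growth of muscle fibres by fusion (chromosome 2, 168476410 to 168601657, minus strand), fell from 3.38 to 2.40 FPKM. That is 29.0% lower, a log2 ratio of -0.49 (interval -0.81 to -0.17). The unadjusted p was 0.00195 and q was 0.0208 in the authors' deposited table. As a standard normal deviate the statistic gave an interval of -1.05 to 0.06 and an adjusted p of 0.78. This low gene was measured less precisely than Nfatc3, with a standard error of 0.16 on the log2 scale against 0.13. The log2 ratio of Nfatc2 minus that of Nfatc3 was -0.07 (interval -0.47 to 0.34). Of the rows with a mean of at least 1 FPKM, 6.65% had a lower log2 ratio than Nfatc2.

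Nfatc1, the NFAT factor best known for the slow fibre programme (chromosome 18, 80606205 to 80713071, minus strand), was the most abundant of the 4. It stood at 16.2 FPKM in the WT group and 12.9 FPKM in MLL4SET-MKO, 20.6% lower, a log2 ratio of -0.33 (interval -0.59 to -0.08). Its unadjusted p was 0.01035 and its q 0.0763 in the authors' deposited table, so it was not called. The smallest log2 ratio that would have been called at its precision was 0.36 in size. The log2 ratio of Nfatc1 minus that of Nfatc3 was 0.10 (interval -0.26 to 0.45), so the called and the uncalled gene were not shown to differ.

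Nfatc4, a further NFAT factor (chromosome 14, 55824795 to 55833943, plus strand), was the least abundant of the 9. It stood at 1.48 FPKM in the WT group and 1.47 FPKM in MLL4SET-MKO, a log2 ratio of -0.01 (interval -0.41 to 0.39) that turned positive when the groups were scaled to equal totals (0.01) or centred on the median of expressed rows (0.03). With q = 0.990 in the authors' deposited table it was not called. Only a log2 ratio of at least 0.56 in size would have been. The log2 ratio of Nfatc3 minus that of Nfatc4 was -0.42 (interval -0.89 to 0.05) and that of Nfatc2 minus Nfatc4 was -0.49 (interval -0.997 to 0.02). All 6 differences between related genes given here had intervals that held 0. Together the 4 NFAT genes summed to 35.0 FPKM in WT and 27.1 FPKM in MLL4SET-MKO. Nfatc1 made up 46.4% and 47.6% of that sum in WT and MLL4SET-MKO, Nfatc3 39.7% and 38.1%, Nfatc2 9.66% and 8.86% and Nfatc4 4.22% and 5.43%. The make-up of the NFAT pool thus moved by under 2 percentage points for every one of the 4 factors. The NFAT sum relative to the catalytic sum was 0.162 in WT and 0.137 in MLL4SET-MKO.

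**Figure D3:**
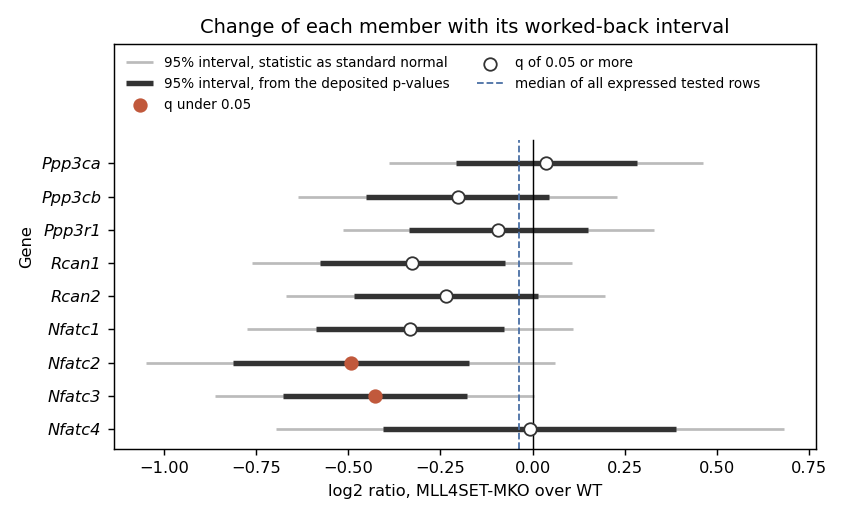
Log2 ratio of MLL4SET-MKO over WT for each gene, with the 95% interval worked back from the deposited p-values (dark) and from the test statistic read as a standard normal deviate (grey), and filled points for q under 0.05. The dark intervals of Rcan1, Nfatc1, Nfatc2 and Nfatc3 lie below 0, all grey intervals reach 0 or beyond, and the dashed line marks the median of expressed rows at -0.04.

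**Figure D4:**
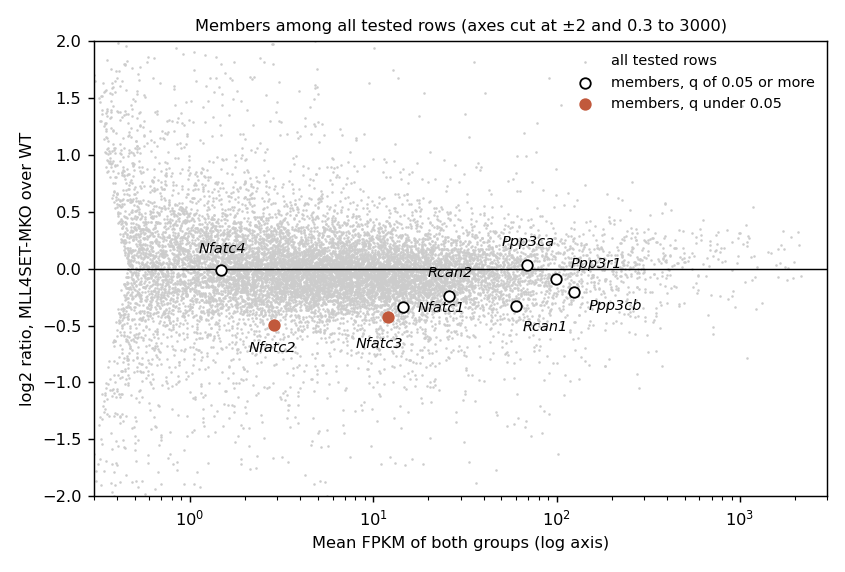
Log2 ratio of MLL4SET-MKO over WT against the mean FPKM of both groups on a log axis, for all tested rows (grey dots; those outside the axes are not drawn) and the 9 genes (large points, filled where q is under 0.05). The 9 genes lie within the body of the tested rows, between -0.49 and 0.04.

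The other genes of the pathway were read from lists made by role. Outside the members and the genes known to respond to the pathway, 33 of 39 listed genes were tested with a mean of at least 1 FPKM. Of these, 4 were called lower (12.1%) and 1 higher (3.03%) in the authors' deposited table, where 7.93% and 4.03% of such rows were. Their median log2 ratio was -0.07.

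Calm3, a gene of calmodulin, the calcium sensor that activates calcineurin, stood in WT and MLL4SET-MKO at 211 and 168 FPKM, with q = 0.0590 in the authors' deposited table, and was not called. Of 9 measured inhibitors, anchors and drug-binding partners of calcineurin, 1 was called lower (11.1%) and 1 higher. Of all tested rows with a mean of at least 1 FPKM, 7.93% were called lower and 4.03% higher. Both called genes were calsarcins, Z-disc proteins that tether calcineurin. Myoz2, the calsarcin of slow fibres and heart, fell from 103 to 58.3 FPKM (log2 ratio -0.82, 95% interval -1.08 to -0.57). Myoz3, a calsarcin of fast fibres, rose from a level of 83.5 to 107 FPKM (0.35 as a log2 ratio, 95% interval 0.10 to 0.60), and the authors' deposited table gives q = 0.0483. The remaining calsarcin listed, Myoz1, was far more abundant, at 1521 FPKM in WT and 1711 FPKM in MLL4SET-MKO. It was not called (log2 ratio 0.17, q = 0.523 in the authors' deposited table). With the statistic read as a standard normal deviate, the Benjamini-Hochberg adjusted value was 0.0128 for Myoz2, which kept its call, and 0.89 for Myoz3, which lost it.

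Of 8 kinases that phosphorylate NFAT and return it to the cytoplasm, 7 had the lower value in MLL4SET-MKO and 1 was called lower (12.5%). Of all tested rows with a mean of at least 1 FPKM, 56.0% had the lower value and 7.93% were called lower. The called kinase row was that of Dyrk1b, which fell from 42.9 to 28.5 FPKM. The authors' table gives it jointly with Fbl, a nucleolar protein gene, so the value belongs to both. The casein kinase gene Csnk1a1 stood in WT and MLL4SET-MKO at 104 and 86.8 FPKM. The glycogen synthase kinase gene Gsk3a, at a locus shared with other genes, stood at 38.2 and 42.4 FPKM, and neither was called. The median log2 ratio of the 8 was -0.23. Of 6 measured genes of NFAT scaffolding and nuclear transport, Homer2 alone was called (16.7% lower, beside 7.93% of such rows). It encodes a scaffold protein known in T cells to compete with calcineurin for NFAT, and its level fell from 8.53 to 5.60 FPKM (log2 ratio -0.61, 95% interval -0.86 to -0.35). Its relative Homer1 stood at 42.2 and 42.0 FPKM and the import receptor gene Kpnb1 at 23.30 and 22.01 FPKM. Nfat5, a member of the family that calcineurin does not control, stood at 6.63 and 5.78 FPKM at a locus shared with other genes and was not called (q = 0.600 in the authors' deposited table). Of 5 measured calcium entry genes, Orai1 alone was called (20% lower, beside the same 7.93%). This pore subunit of store-operated calcium entry fell from 26.7 to 19.2 FPKM (log2 ratio -0.48, 95% interval -0.74 to -0.21), while its sensor Stim1 stood at 84.7 and 80.1 FPKM. With the statistic read as a standard normal deviate, the calls of Dyrk1b, Homer2 and Orai1 were lost, with adjusted p-values of 0.80, 0.15 and 0.58.

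Slow fibre genes known to respond to calcineurin and NFAT fell together. Of 9 measured, 8 were called lower (88.9%), also with the statistic read as a standard normal deviate, and the median log2 ratio was -1.89. Of all tested rows with a mean of at least 1 FPKM, 7.93% were called lower in the authors' deposited table, with a median log2 ratio of -0.04. On the standard normal reading 1.88% of rows were called lower. Tnnt1, slow troponin T, fell from 107 to 19.2 FPKM, and Tnnc1, slow troponin C, from 134 to 24.5 FPKM. The myosin heavy chain gene of slow fibres, Myh7, whose locus holds Mhrt and Mir208b too, fell from 86.7 to 18.3 FPKM, and the slow light chain Myl2 from 270.1 to 62.0 FPKM. Myoglobin, Mb, at a locus shared with Apol6, was the exception, with 1840 and 2299 FPKM and q = 0.134 in the authors' deposited table. These genes are also markers of slow fibres, and a smaller share of slow fibres and less slow transcript per fibre cannot be told apart here. The fall of these genes was seen in earlier results of the same data and is no independent evidence on the pathway. Of the 3 measured among other responsive genes, Myf5, a satellite cell factor, was called lower, from 1.46 to 0.789 FPKM. Myh2, the myosin of fast oxidative fibres, stood at 428 and 369 FPKM and Mstn, the growth inhibitor myostatin, at 39.4 and 45.3 FPKM, neither called. The cytokine genes Il4 and Il13 were listed at 0 in both groups.

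**Figure D5:**
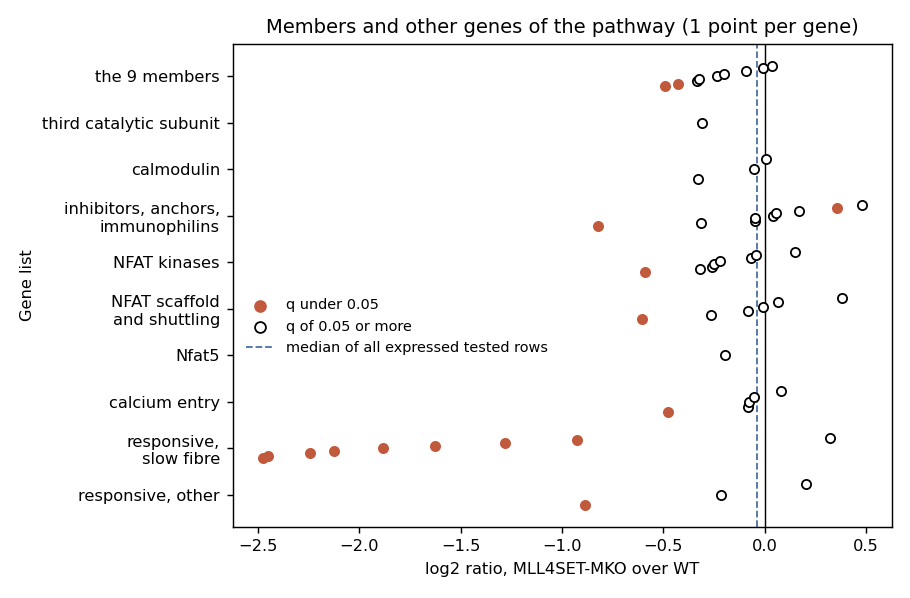
Log2 ratio of MLL4SET-MKO over WT, 1 point per gene, for the 9 genes and for the other genes of the pathway by role (tested rows with a mean of at least 1 FPKM), filled where q is under 0.05. The slow fibre genes reach -2.48, while the 9 genes lie between -0.49 and 0.04, beside the dashed median of expressed rows at -0.04.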

How the data were processed

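Gastrocnemius RNA of 3 WT and 3 MLL4SET-MKO mice was sequenced. TopHat2 2.0.14, Cufflinks 2.2.1 and mm10 (GRCm38) are named in the submitters' processing notes. No source used here gives the annotation, the scaling between libraries or the use of strand. The authors deposited 1 FPKM per group, a test statistic (a score), a p-value and a q-value per gene, in the layout of Cuffdiff per the file headers. The labels call the libraries biological replicates, and no column of single libraries was used. Of the rows, 13347 were tested, 12569 were not and 11 were failed estimates.

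Log2 ratios of the group FPKM were computed with no pseudocount, with Python 3.11.15, pandas 2.3.3 and scipy 1.17.1. Standard errors were worked back as the log2 ratio divided by 1.73 times the statistic, so they carry the authors' model of the spread, not values of single mice. Calls use the authors' q under 0.05, which Benjamini-Hochberg adjustment of their p-values over the tested rows gives within 0.0001. The adjusted p-values of the standard normal reading use 13327 rows, since 20 had lost their statistic. Starts in the table count from 0 and 1 was added. Opposite-strand genes of GENCODE M21 overlap 6 of the 9 genes, and without known strand their reads cannot be told apart. The 9 genes and the lists were chosen with earlier results of these data known. Besides the 9 genes and Kmt2d, the rule for named genes took up to 4 called genes of each pathway list, and the 2 of highest mean FPKM where fewer than 2 were called; others were chosen after their values were seen. Some genes that the rule takes are not reported here. The calculation was tested on simulated data.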

Additional observations from a re-analysis of the deposited data

How the results depend on the processing

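The median log2 ratio of the 9 genes was -0.24 with no pseudocount. It moved by less than the median standard error with a pseudocount of 0.1 or 1 FPKM, centred on the median of expressed rows, or scaled to equal totals, and Nfatc4 alone changed sign, on either rescaling. With the statistic read as a standard normal deviate, the count of the 9 genes called lower went from 2 to 0, and to 1, Nfatc3, with q under 0.01. On the normal reading the count went to 0 for the higher call among inhibitors and anchors and for the lower calls among NFAT kinases, scaffold and transport genes, calcium entry genes and other responsive genes. The count of macrophage markers called higher went from 6 to 1. That reading made the p of each of the 9 genes larger. The 8 slow fibre calls and that of Myoz2 were kept. For Tnnt1, at the smallest deposited p of 5e-05, the normal reading gave a smaller p (1.43e-27). Adjustment over rows with a mean of at least 1 FPKM, and rows with 1 symbol only, left 2 of the 9 genes called. The pathway list counts without the FPKM filter did not change, while the satellite cell markers called lower went from 1 to 2 (Calcr). No paired analysis was possible because the table has 1 value per group, and for the same reason no replicate could be left out. Depth is unknown, and the standard errors, from 0.12 to 0.20 on the log2 scale, bound what could be seen.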
